A study of Mus musculus with 24 samples.

Results

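The comparison described here is MS_EC12 against MS: prefrontal cortex of wild-type adult males that had gone through maternal separation and then took the EC-12 supplement for 5 weeks, against that of separated males without it. EC-12 is heat-killed Enterococcus faecalis, a lactic acid bacterium of the gut, and by its title the series asks about its use against a social deficit that maternal separation, an early-life stress, leaves behind. The comparison takes in the libraries that the labels assign to those groups, 12 of the 24 RNA-seq libraries of the series and 6 a group. The other 12 are 6 of Control_EC12, without separation and with the supplement, and 6 of Control, with neither, all wild type too. They shared in the estimate of the spread, and their own contrast is set beside the main one at the end. Nothing in the labels ties a library to an animal of its own, and the p-values therefore speak of variation among libraries, which may be technical in part.

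The prefrontal cortex holds excitatory projection neurons and inhibitory interneurons among astrocytes, oligodendrocytes, microglia and vessels, and it takes part in social behaviour and in the control of the stress response. Astrocytes take up glutamate, turn it into glutamine and hand it back to neurons through amino acid transporters. Gut bacteria and their products are known to reach the brain's state through immune signals, metabolites and the vagus nerve. The RNA was that of bulk tissue, in which fewer cells of a type and less RNA per cell cannot be told apart. The 16 tested markers of cortical excitatory neurons summed to 5723 to 7389 CPM in MS_EC12 and 4633 to 6894 CPM in MS, where CPM are counts scaled to a common library total.

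A transcript's GC content, the share of its bases that are G or C, matters here because the libraries differed in how much of their counts fell on GC-rich and GC-poor transcripts. The sequences below show part of that range, with G and C in capitals. Each is a stretch of 90 bases from the middle of the coding sequence, 5′ to 3′ on the coding strand, of the GENCODE M21 transcript with the longest coding sequence (build GRCm38). Enho and Metrn are GC-rich genes that were higher in MS_EC12, Xdh lies at the middle of the range and had the smallest p, Acvr2a is a GC-poor gene that was lower with GC content taken into account, and Gabra2 and Zfp189 belong to GC-poor groups described below.
Enho: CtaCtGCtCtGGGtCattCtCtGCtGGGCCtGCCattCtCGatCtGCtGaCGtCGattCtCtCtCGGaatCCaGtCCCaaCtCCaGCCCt
Metrn: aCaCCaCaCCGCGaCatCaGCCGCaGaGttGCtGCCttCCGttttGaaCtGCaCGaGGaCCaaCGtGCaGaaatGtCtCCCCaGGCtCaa
Xdh: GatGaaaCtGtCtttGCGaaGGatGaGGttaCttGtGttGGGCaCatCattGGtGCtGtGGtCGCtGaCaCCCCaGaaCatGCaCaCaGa
Acvr2a: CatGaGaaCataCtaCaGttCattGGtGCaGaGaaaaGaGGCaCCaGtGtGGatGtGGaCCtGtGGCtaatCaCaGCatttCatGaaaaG
Gabra2: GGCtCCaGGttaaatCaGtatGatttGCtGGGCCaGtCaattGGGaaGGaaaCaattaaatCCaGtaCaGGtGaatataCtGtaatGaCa
Zfp189: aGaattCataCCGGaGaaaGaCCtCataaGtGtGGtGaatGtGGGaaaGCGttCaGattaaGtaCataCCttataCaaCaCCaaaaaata
The stretch of Enho (chr4:41638684-41638773, minus strand, exon 2) holds 51 G or C, as does that of Metrn (chr17:25796257-25796346, minus strand, exon 2). That of Xdh (chr17:73910223-73912443, minus strand, across the junction of exons 18 and 19) holds 45. The stretch of Acvr2a (chr2:48892183-48892272, plus strand, exon 6) holds 40, that of Gabra2 (chr5:71006240-71007992, minus strand, across the junction of exons 7 and 8) holds 36 and that of Zfp189 (chr4:49529766-49529855, plus strand, exon 3) holds 33. A stretch need not match its whole transcript, whose GC content is 65.64% for Enho, 57.94% for Metrn and 51.93% for Xdh. It is 39.94% for Acvr2a, 38.4% for Gabra2 and 44.45% for Zfp189.

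The libraries stood apart on this property. For each library the log2 CPM of every gene, less the gene's mean over the 24 libraries, was regressed on transcript GC. A slope above 0 means that GC-rich genes ran above, and GC-poor genes below, their mean. Per 10 percentage points of GC the slope averaged 0.23 ± 0.34 in MS_EC12 and −0.10 ± 0.19 in MS (SD, n = 6 each), a difference of 0.34 log2 units (exact 2-sided permutation p = 0.0455, smallest possible p = 0.00216). That these libraries differ in their dependence on GC was known from earlier results before this test was chosen. The p is therefore not that of a test set in advance. In MS_EC12 the lowest slope was −0.17, the median 0.29 and the highest 0.63. In MS they were −0.21, −0.18 and 0.28. Replicates 3, 4, 5 and 6 of MS_EC12 lay above 0 and replicates 1 and 2 below it, while in MS replicate 3 alone lay above 0. Without any 1 of MS_EC12 replicates 3, 4, 5 and 6 or MS replicates 1, 2, 4, 5 and 6 the p was above 0.05 (up to 0.0974), and with transcript length in the same regression the difference was 0.32 (exact permutation p = 0.0866). Both kinds of library occurred in both groups, with slopes above 0 in 4 of 6 MS_EC12 and 1 of 6 MS libraries. The same was seen in 2 of 6 Control_EC12 and 0 of 6 Control libraries.

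**Figure D1:**
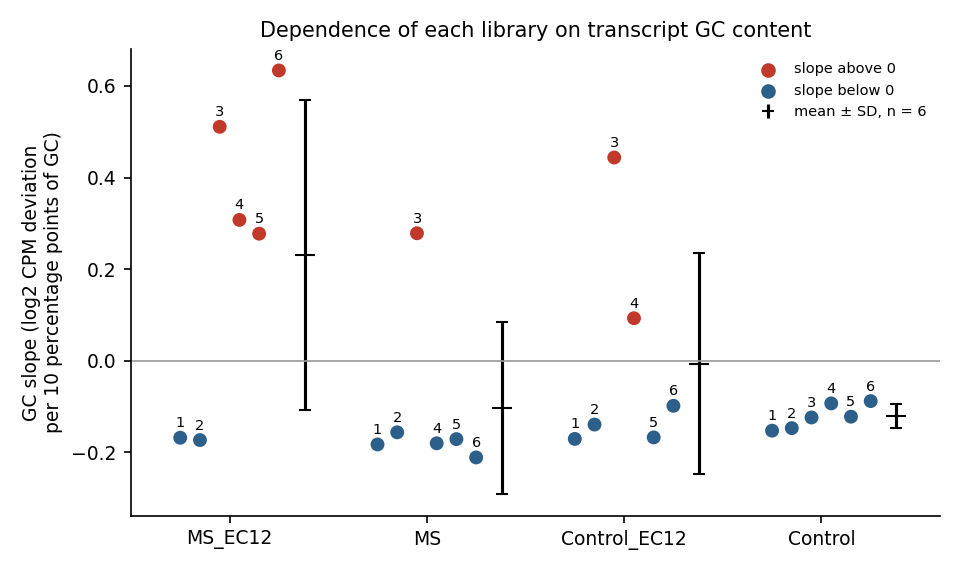
GC slope of each library (vertical axis, log2 CPM deviation per 10 percentage points of GC) by group, with replicate numbers, red above 0 and blue below, and mean ± SD (n = 6). MS_EC12 spans −0.17 to 0.63 with 4 libraries above 0, and MS has 1 library at 0.28 and 5 at or below −0.16.

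The libraries crossed one another over the range of GC. In the lowest decile of genes by GC, from 31.3% to 42.8%, the median deviation was −0.90, −0.65, −0.39 and −0.38 in MS_EC12 replicates 6, 3, 5 and 4, and −0.40 in MS replicate 3. It was 0.23 and 0.22 in MS_EC12 replicates 1 and 2, and 0.20 to 0.26 in the other 5 MS libraries. In the highest decile, above 58.5% GC, the same 4 MS_EC12 libraries stood at 0.16 to 0.35 and MS replicate 3 at 0.14. MS_EC12 replicates 1 and 2 stood there at −0.11 and −0.12, and the other 5 MS libraries at −0.15 to −0.09. On this axis MS_EC12 replicates 1 and 2 lay with most MS libraries, and MS replicate 3 lay with most MS_EC12 libraries.

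**Figure D2:**
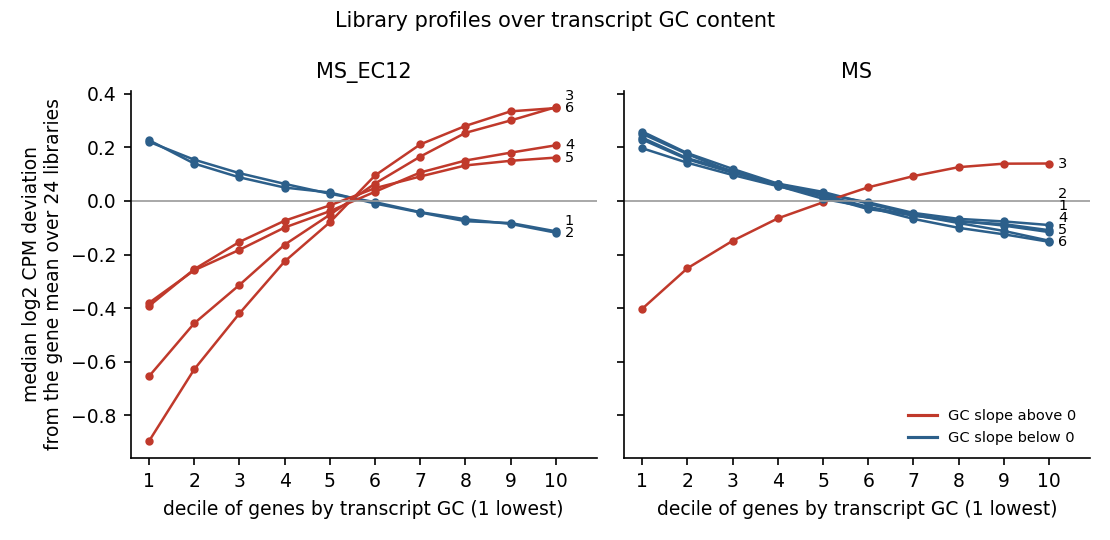
Median log2 CPM deviation from the gene mean (vertical axis) over deciles of genes by transcript GC (horizontal axis, 1 lowest), 1 line per library, for MS_EC12 (left) and MS (right), numbered by replicate. Red lines have a GC slope above 0 and blue lines below; MS_EC12 replicate 6 runs from −0.90 to 0.35.

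Other properties of the libraries moved with the groups too. The share of counts on the 13 protein genes of the mitochondrial genome was 7.54 ± 0.686% in MS_EC12 and 6.68 ± 0.374% in MS (SD, n = 6 each, exact permutation p = 0.0281). The slope on log2 transcript length was −0.06 ± 0.05 in MS_EC12 and 0.02 ± 0.02 in MS (SD, n = 6 each, exact permutation p = 0.0108). The gap between the highest and the lowest quintile of genes by GC, which measures the same dependence as the GC slope, was 0.40 in MS_EC12 and −0.18 in MS (exact permutation p = 0.0216). Adjusted over these 4 measures, which are not independent of one another, the permutation p was 0.0455 for the GC slope and 0.0375 for each of the others. Total counts ran from 29804781 to 39252382 in MS_EC12 and from 27772142 to 33710435 in MS.

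Across all genes the fold change followed GC content. In the lowest GC decile 11.4% of 1708 genes had a positive log2 fold change of MS_EC12 over MS, and the median was −0.41. In the highest decile 93.2% of 1709 genes had a positive one, and the median was 0.23. The median rose with each decile, through −0.29 in the second and 0.20 in the ninth, and changed sign between the fifth and the sixth, at 50.8% GC. Pearson's r between fold change and GC was 0.58 across 17082 genes, which are not independent replicates and share the same libraries. In the 17 libraries of slope below 0, which include 2 of MS_EC12 and 5 of MS, the medians of the deciles lay between −0.02 and 0.01, and r was 0.02. These libraries were chosen by their GC slope, so a flat profile over GC largely follows from the choice. For Control_EC12 over Control the medians ran from −0.13 in the lowest decile to 0.08 in the highest.

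**Figure D3:**
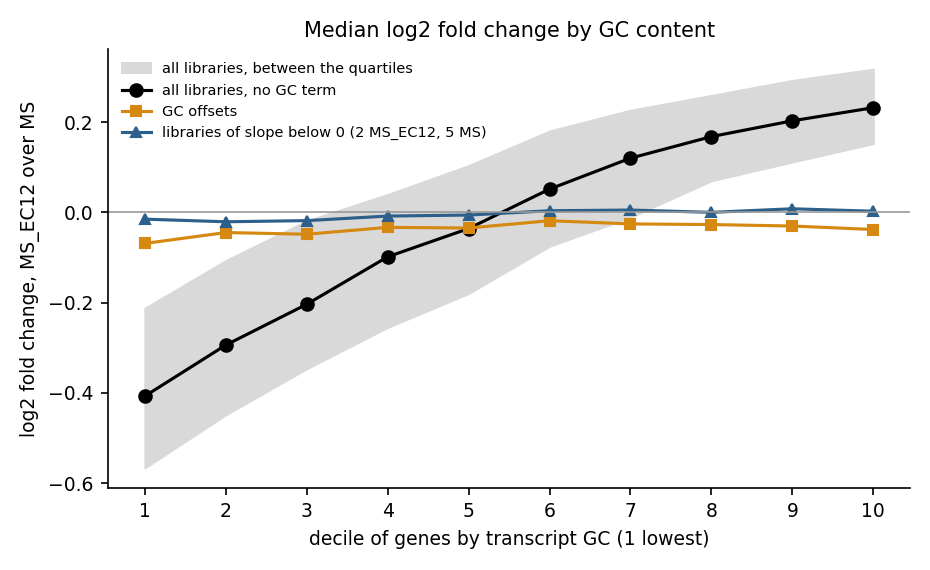
Median log2 fold change of MS_EC12 over MS (vertical axis) in deciles of genes by transcript GC (horizontal axis). The black line (all libraries, no GC term, grey band between the quartiles) climbs from −0.41 to 0.23, while with GC offsets (orange) and in libraries of slope below 0 (blue) the medians stay between −0.07 and 0.01. Fitting the offsets, or choosing libraries by slope, itself takes out most of the trend.

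Of 18380 genes tested, 30 passed an adjusted p of 0.05 (0.163%), 28 of them higher in MS_EC12 (0.152%) and 2 lower (0.0109%). Far more genes, 5842 or 31.8%, had an unadjusted p under 0.05, 2850 higher (15.5%) and 2992 lower (16.3%). The calls leaned to GC-rich genes: of the 27 that rose and have a GC value, 24 lay above the median of tested genes, 50.8%. MS replicate 3 was the highest MS library in 21 of the 28. Its median deviation lay above that of the other MS libraries in the upper GC deciles. The share over all genes was not counted, so nothing is read from this. In 157 genes (0.854%) the CPM ranges of the groups did not overlap, 109 with MS_EC12 higher (0.593%) and 48 with MS_EC12 lower (0.261%), and 16 of the 30 were among them. The spread was estimated over groups unlike in it. The SD of the GC slope was 0.34 in MS_EC12, 0.19 in MS, 0.24 in Control_EC12 and 0.03 in Control. Fitted on the 12 libraries of the comparison alone, 0 genes passed, with 4650 at an unadjusted p under 0.05. The part of the shared spread in the 30 calls was not tested.

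The called genes are given by role, a grouping made after the calls were seen. Among genes of metabolism and transport, the smallest p was that of Xdh, the oxidase that turns xanthine into uric acid. Its level ran from 5.56 to 7.72 CPM in MS_EC12 with a median of 6.61, and from 2.25 to 4.13 CPM in MS with a median of 3.59 (log2 fold change 0.96 ± 0.15 SE, adjusted p = 0.0294). Every MS_EC12 library lay above every MS library, and the highest were replicates 2 and 1, at 7.72 and 6.83 CPM, the MS_EC12 libraries of slope below 0. Slc38a3, a glutamine transporter of astrocytes, ran from 85.01 to 149 CPM in MS_EC12 with a median of 101, and from 57.6 to 79.9 CPM in MS with a median of 66.6 (0.74 ± 0.14, adjusted p = 0.036). The groups did not overlap, and MS_EC12 replicates 6 and 1, of opposite slopes, were the highest at 149 and 138 CPM. Slc7a5, which carries large neutral amino acids across the blood-brain barrier, ran from 57.4 to 97.2 CPM in MS_EC12 and from 42.1 to 59.3 CPM in MS (0.56 ± 0.11, adjusted p = 0.036). The only MS library within the MS_EC12 range was replicate 3. Smox, the oxidase that breaks down spermine, stood at 0.39 ± 0.08, adjusted p = 0.0435.

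Several called genes handle lipids. Abhd4, a lipase of N-acyl phospholipids, ran from 75.8 to 115 CPM in MS_EC12 with a median of 80.02, and from 52.3 to 77.2 CPM in MS with a median of 55.9 (0.53 ± 0.10, adjusted p = 0.036). The highest MS value, 77.2 CPM, was that of replicate 3, and the other 5 MS libraries lay at or below 58.3 CPM. Pnpla2, the lipase that starts the breakdown of stored triglyceride, ran from 17.1 to 22.9 CPM in MS_EC12 and from 10.7 to 14.9 CPM in MS (0.51 ± 0.10, adjusted p = 0.036). Acacb, the acetyl-CoA carboxylase that restrains fatty acid entry into mitochondria, ran from 4.93 to 7.63 CPM in MS_EC12 and from 3.49 to 4.66 CPM in MS (0.64 ± 0.13, adjusted p = 0.0486). Npc2, which moves cholesterol out of the lysosome, ran from 61.1 to 80.02 CPM in MS_EC12 and from 46.1 to 57.9 CPM in MS (0.39 ± 0.08, adjusted p = 0.036). In Pnpla2, Acacb and Npc2 every MS_EC12 library lay above every MS library.

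Secreted proteins were another group among the calls. Cst3, cystatin C, an inhibitor of cysteine proteases, ran from 1148 to 1859 CPM in MS_EC12 and from 830.3 to 1100.4 CPM in MS, without overlap (0.55 ± 0.11, adjusted p = 0.036). Metrn, meteorin, which acts on glia and axons, ran from 39.4 to 64.7 CPM in MS_EC12 and from 26.9 to 40.02 CPM in MS (0.58 ± 0.11, adjusted p = 0.036). Enho, which encodes the peptide adropin, ran from 39.4 to 57.95 CPM in MS_EC12 and from 30.3 to 41.3 CPM in MS (0.58 ± 0.12, adjusted p = 0.0435). In Metrn and Enho, both GC-rich as their sequences above show, the only MS library within the MS_EC12 range was replicate 3. Pdgfb, the growth factor with which endothelium recruits pericytes, stood at 0.54 ± 0.11, adjusted p = 0.036, and Oaf at 0.54 ± 0.11, adjusted p = 0.0435.

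Nuclear and cell-cycle genes that rose included Cdkn1a, the inhibitor p21 of cyclin-dependent kinases (0.65 ± 0.13, adjusted p = 0.036), and the histone genes H1f2 (0.76 ± 0.15, adjusted p = 0.036) and H2bc4 (0.47 ± 0.10, adjusted p = 0.0394). Nr1d1, the clock repressor REV-ERBα, ran from 87.4 to 127 CPM in MS_EC12 and from 67.5 to 90.9 CPM in MS (0.50 ± 0.10, adjusted p = 0.0376). Its lowest MS_EC12 libraries were replicates 2 and 1, at 87.4 and 88.7 CPM, and its highest MS library was replicate 3, at 90.9 CPM. Fam83d, a protein of the mitotic spindle, ran from 1.87 to 3.34 CPM in MS_EC12 and from 0.922 to 1.89 CPM in MS (0.97 ± 0.17, adjusted p = 0.036).

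Among signalling and membrane proteins, Irak2, a kinase of Toll-like and interleukin-1 receptor signalling, stood at 0.40 ± 0.08, adjusted p = 0.0486. Also higher were S100a1, a calcium-binding protein (0.43 ± 0.09, adjusted p = 0.0435), Kctd5, an adaptor of cullin ubiquitin ligases (0.39 ± 0.08, adjusted p = 0.036), and Syngr2, a vesicle protein (0.58 ± 0.11, adjusted p = 0.036). Pacsin3, which bends membranes (0.39 ± 0.08, adjusted p = 0.036), Smim3 (0.77 ± 0.14, adjusted p = 0.036), Tmem114 (1.01 ± 0.19, adjusted p = 0.036) and AW047730 (0.69 ± 0.13, adjusted p = 0.036) rose too. TrnL2, a mitochondrial transfer RNA gene, ran from 1.24 to 16.5 CPM in MS_EC12 and from 1.12 to 1.81 CPM in MS (2.20 ± 0.44, adjusted p = 0.036). Replicates 6, 2 and 4 of MS_EC12 lay above the MS range, at 16.5, 10.1 and 7.91 CPM, and the remaining 3 lay within it.

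Gm32810, an unnamed gene model, and Gask1b, named as a Golgi-associated kinase, fell. Gm32810 ran from 0.776 to 2.19 CPM in MS_EC12 and from 1.60 to 3.86 CPM in MS (−1.23 ± 0.22, adjusted p = 0.036). Gask1b ran from 5.51 to 9.69 CPM in MS_EC12 and from 10.2 to 12.7 CPM in MS, without overlap (−0.56 ± 0.11, adjusted p = 0.036). Further genes in that direction missed the threshold: Cfap44, a protein of motile cilia (−0.94 ± 0.20, adjusted p = 0.0519), Sorcs3, a sorting receptor of neurons (−0.45 ± 0.10, adjusted p = 0.0533), Bmp3, a ligand of the TGF-beta family (−0.69 ± 0.15, adjusted p = 0.0544), and Htr4, a serotonin receptor (−0.80 ± 0.18, adjusted p = 0.0664).

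The test was repeated with GC offsets, which take each library's smooth trend over GC out of every gene. It gave 17 calls (0.0925%), 11 higher (0.0598%) and 6 lower (0.0326%), where the fit without a GC term had 28 and 2. At an unadjusted p under 0.05 there were 3858 genes (21%), 7.78% higher and 13.2% lower. Passing in both fits were 9 genes, of the 30 and of the 17, among them Xdh, Smim3, Abhd4, Npc2, Kctd5, TrnL2 and H2bc4, which were higher, and Gm32810, which was lower. TrnL2 and Gm32810 have no GC value and received no offset, so for them this is no check of GC. Xdh stood at 0.93 ± 0.15, adjusted p = 0.0438, and the others of the 9 at an adjusted p of 0.0474. All 30 kept their direction with offsets, and 28 had an unadjusted p under 0.05. The 30 were selected in the same libraries, so this is no independent check. GC-rich genes had smaller estimates: Metrn stood at 0.31 ± 0.09, adjusted p = 0.0897, Enho at 0.30 ± 0.08, adjusted p = 0.0849 and Cst3 at 0.30 ± 0.09, adjusted p = 0.104.

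**Figure D4:**
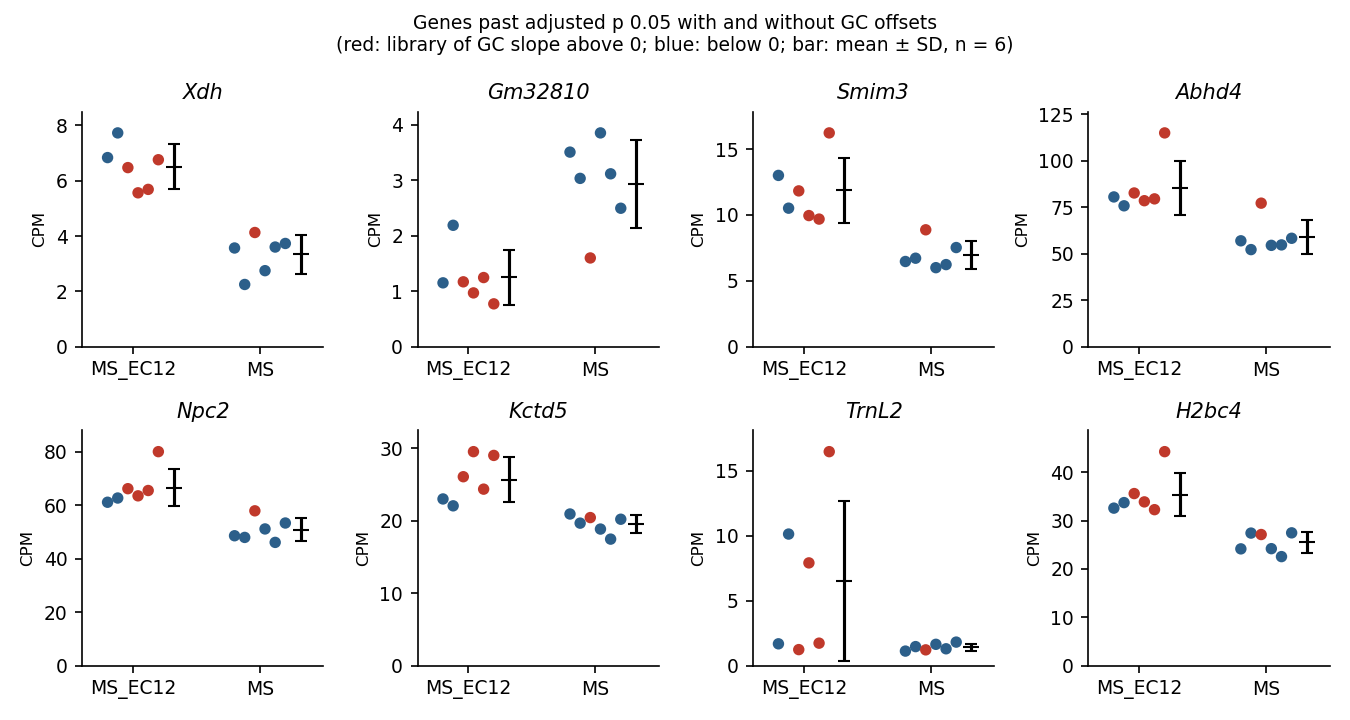
CPM (vertical axes, from 0) of 8 genes that passed with and without GC offsets, in MS_EC12 (left) and MS (right), 1 point per library, red for a GC slope above 0 and blue below, with mean ± SD (n = 6). In Xdh the MS_EC12 points lie between 5.56 and 7.72 CPM, all above the MS points, and in TrnL2 3 MS_EC12 points stand above the rest.

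The other 8 genes called with GC offsets all lay below the median GC. Acvr2a, a receptor for activins with 39.9% GC, ran from 14.95 to 43.3 CPM in MS_EC12 and from 27.7 to 53.9 CPM in MS. Its log2 fold change was −0.73 ± 0.20, adjusted p = 0.0788 without a GC term and −0.39 ± 0.07, adjusted p = 0.0474 with offsets, a smaller estimate with a smaller error. Also lower with offsets were Alcam, an adhesion molecule of axons (−0.43 ± 0.08), Sorcs3 (−0.46 ± 0.09), Bmp3 (−0.45 ± 0.09) and Nwd2 (−0.49 ± 0.10), each at an adjusted p of 0.0474. Sorcs3 ran from 35.6 to 40.5 CPM in MS_EC12 and from 46.3 to 65.2 CPM in MS, without overlap. Higher with offsets were Mgst1, a microsomal glutathione transferase (0.75 ± 0.15), Rida, an imine deaminase (0.80 ± 0.16), and Pyurf (0.33 ± 0.07), at the same adjusted p. Pyurf stood at 0.01 ± 0.10, adjusted p = 0.944 without a GC term.

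With each library's GC slope as a covariate, 3 genes passed (0.0163%), all higher, and 1377 (7.49%) had an unadjusted p under 0.05. They were Xdh (1.03 ± 0.16, adjusted p = 0.0135), Ccdc141 (0.71 ± 0.11, adjusted p = 0.0135) and Mertk, a receptor with which glia engulf debris (0.42 ± 0.07, adjusted p = 0.0376). Without the covariate Ccdc141 stood at 0.16 ± 0.24, adjusted p = 0.67 and Mertk at 0.10 ± 0.15, adjusted p = 0.642.

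In the 17 libraries of slope below 0, where MS_EC12 has replicates 1 and 2 and MS has 5 libraries, 14 of 19098 genes passed (0.0733%), 11 higher (0.0576%) and 3 lower (0.0157%). An unadjusted p under 0.05 was reached by 1769 genes (9.26%), 4.73% higher and 4.53% lower. With GC offsets in these libraries 12 passed (0.0628%). Xdh (1.19 ± 0.19, adjusted p = 0.0379), Slc38a3 (0.91 ± 0.16, adjusted p = 0.0438), Abhd4 (0.49 ± 0.09, adjusted p = 0.0438), Cst3 (0.48 ± 0.09, adjusted p = 0.0438) and TrnL2 (2.00 ± 0.37, adjusted p = 0.0438) passed both here and in all libraries. Further genes that rose were Mertk (0.56 ± 0.08, adjusted p = 0.0167), Ccdc141 (0.68 ± 0.13, adjusted p = 0.0496), S100b, a calcium-binding protein of astrocytes (0.39 ± 0.07, adjusted p = 0.0438), Thrsp, a thyroid-hormone-responsive regulator of lipid synthesis (0.76 ± 0.13, adjusted p = 0.0438), Hadh, an enzyme of fatty acid oxidation (0.40 ± 0.07, adjusted p = 0.0438), and Mcur1, a regulator of mitochondrial calcium uptake (0.50 ± 0.09, adjusted p = 0.0438). Gpt, alanine aminotransferase (−0.77 ± 0.12, adjusted p = 0.0202), Slc7a11, which exchanges cystine for glutamate (−0.58 ± 0.10, adjusted p = 0.0438), and Myoc, myocilin (−0.85 ± 0.16, adjusted p = 0.0438), fell. All 30 genes called in all libraries kept their direction here. They were selected in libraries that include these, so nothing is read from that. Xdh alone passed in all libraries, with GC offsets, with the covariate and in the libraries of slope below 0. These fits reuse the libraries in which Xdh had the smallest p, so this is no independent check.

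Single libraries decided the number of calls. Without MS_EC12 replicate 1 it was 5037 genes (2222 higher, 2815 lower), without MS_EC12 replicate 2 it was 4594 genes (2034 higher, 2560 lower), and without MS replicate 3 it was 3937 genes (1881 higher, 2056 lower). Each of these has the slope that is rarer in its group, and without it the difference in GC slope between the groups was 0.42, 0.42 and 0.41, against 0.34 with all. Without any other library the count was 0 to 3, except 39 without MS_EC12 replicate 5. It was 2 without MS_EC12 replicate 3, 1 without MS_EC12 replicate 4, 3 without MS replicate 5, and 0 without MS_EC12 replicate 6 or MS replicate 1, 2, 4 or 6, where 3298 to 4698 genes had an unadjusted p under 0.05. With GC offsets it was 1402 and 1451 without MS_EC12 replicate 1 or 2, 949 without MS replicate 3, and 0 to 4 without any other. Xdh passed in 7 of the 12 fits that leave out a library and in 17 of all 25 alternatives, where its log2 fold change ran from 0.76 to 1.19. None of the 30 passed in all 25, and none changed direction in any. The alternatives reuse libraries in which the 30 were selected, so a kept direction is no independent check.

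Gene lists were read by counts at an unadjusted p under 0.05 and by medians. Of all genes 15.5% were higher and 16.3% lower without a GC term. These shares were 7.78% and 13.2% with offsets, and 4.73% and 4.53% in the libraries of slope below 0. The median of all genes was 0.02 without a GC term and −0.04 with offsets. Adjusted calls, 0.163% of all genes, were few in the lists. They were 2 of 29 glucocorticoid-induced genes (Cdkn1a and Pnpla2) and 2 of 21 genes of glutamine and glutamate transport (Slc38a3 and Slc7a5). There was also 1 each among 22 clock (Nr1d1), 23 purine (Xdh) and 30 cholesterol genes (Npc2), and all were higher. The glucocorticoid list also holds the receptors Nr3c1 and Nr3c2. The lists were written with earlier results of these data known, so nothing is read from these counts. The other 33 of 38 lists had no member past the adjusted threshold of edgeR's test in all libraries without a GC term. The genes named from them below did not pass in that fit. Of these lists, the postsynaptic one holds Sorcs3, which passed with offsets. The astrocyte list holds S100b, which passed in the libraries of slope below 0.

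Zinc-finger and GABA receptor genes, both GC-poor, lay low. The 75 zinc-finger genes, DNA-binding repressors with a median GC of 42.6%, had 1 higher and 40 lower and a median of −0.55. Zfp189 ran from 2.04 to 6.93 CPM in MS_EC12 and from 3.71 to 9.29 CPM in MS (−0.85 ± 0.26, adjusted p = 0.0825), and Zfp935 stood at −0.98 ± 0.30, adjusted p = 0.0825. With GC offsets the list had 0 higher and 32 lower and a median of −0.33, and 5 higher and 2 lower and 0.03 in the libraries of slope below 0. The 16 GABA receptor subunits, the receptors of inhibition, had 0 higher and 10 lower and a median of −0.44, which was −0.17 with offsets and −0.10 in the libraries of slope below 0. Gabra2 ran from 18.4 to 50.2 CPM in MS_EC12 and from 29.2 to 69.3 CPM in MS (−0.71 ± 0.22, adjusted p = 0.0828), and Gabrb1 stood at −0.67 ± 0.22, adjusted p = 0.0843.

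In synaptic lists the offsets moved the median less. The 25 glutamate receptors had 5 higher and 14 lower and a median of −0.23, then 0 higher and 11 lower and −0.20 with offsets, and 0 higher and 5 lower and −0.09 in the libraries of slope below 0. Grm5, a metabotropic receptor, ran from 92.3 to 200.4 CPM in MS_EC12 and from 145 to 240.4 CPM in MS (−0.64 ± 0.16, adjusted p = 0.0754) and stood at −0.63 ± 0.16, adjusted p = 0.0797 with offsets. Grin2b, a subunit of the NMDA receptor, stood at −0.61 ± 0.18, adjusted p = 0.0805. The 35 voltage-gated channels had 6 higher and 14 lower and a median of −0.21, then 0 higher and 17 lower and −0.21 with offsets, and 0 higher and 5 lower and −0.07 in the libraries of slope below 0. Scn1a, a sodium channel of interneurons, stood at −0.64 ± 0.20, adjusted p = 0.0825. The 35 genes of postsynaptic scaffold and adhesion had 2 higher and 14 lower and a median of −0.11, and −0.12 with offsets. Sorcs3 among them stood at −0.45 ± 0.10, adjusted p = 0.0533, and at −0.46, adjusted p = 0.0474 with offsets. Homer1 stood at −0.46 ± 0.12, adjusted p = 0.0754, and at −0.17, adjusted p = 0.322 with offsets. The 37 genes of synaptic vesicles had 4 higher and 9 lower and a median of 0.03, and −0.08 with offsets. Syt4 among them stood at −0.51 ± 0.13, adjusted p = 0.0754, and at −0.15, adjusted p = 0.132 with offsets.

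Lists of ribosomal and respiratory genes lay high. The 81 ribosomal protein genes had 63 higher and 0 lower and a median of 0.31, then 43 higher and 0 lower and 0.19 with offsets, and 7 higher and 1 lower and 0.06 in the libraries of slope below 0. Rps12 ran from 129 to 176 CPM in MS_EC12 and from 114 to 134 CPM in MS (0.34 ± 0.09, adjusted p = 0.0754), and Rpl36 stood at 0.46 ± 0.12, adjusted p = 0.0754. The 80 nuclear genes of the respiratory chain and ATP synthase had 58 higher and 3 lower and a median of 0.27, then 36 higher and 2 lower and 0.17 with offsets, and 9 higher and 0 lower and 0.05 in the libraries of slope below 0. Sdhc, a subunit of succinate dehydrogenase, stood at 0.34 ± 0.09, adjusted p = 0.0754, and Cox7c, of cytochrome oxidase, at 0.34 ± 0.11, adjusted p = 0.0834.

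For the 13 protein genes of the mitochondrial genome, whose median GC is 37.1%, the offsets raised the estimates. They had 5 higher and 0 lower and a median of 0.13 without a GC term, 11 higher and 0 lower and 0.59 with offsets, and 9 higher and 0 lower and 0.27 in the libraries of slope below 0. COX3, a subunit of cytochrome oxidase, ran from 5955 to 8334 CPM in MS_EC12 and from 4376 to 5458 CPM in MS, without overlap (0.45 ± 0.12, adjusted p = 0.0754), and ATP8, of ATP synthase, stood at 0.41 ± 0.10, adjusted p = 0.0754.

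Immune lists were mostly positive. Of antigen presentation and complement, 32 genes had 17 higher and 0 lower and a median of 0.38, then 7 higher and 0 lower and 0.17 with offsets, and 5 higher and 0 lower and 0.10 in the libraries of slope below 0. H2-D1, a class I molecule, ran from 34.8 to 60.2 CPM in MS_EC12 and from 31.5 to 43.4 CPM in MS (0.47 ± 0.11, adjusted p = 0.0753). C4b, of complement, stood at 0.43 ± 0.11, adjusted p = 0.0754 and Psmb9, of the immunoproteasome, at 0.73 ± 0.19, adjusted p = 0.0754. The 36 interferon-stimulated genes had 12 higher and 2 lower and a median of 0.16, then 10 higher and 2 lower and 0.23 with offsets, and 7 higher and 0 lower and 0.24 in the libraries of slope below 0. Irf7, a factor that amplifies interferon production, ran from 1.72 to 3.15 CPM in MS_EC12 and from 1.23 to 1.80 CPM in MS (0.74 ± 0.18, adjusted p = 0.0754), and Lgals3bp stood at 0.44 ± 0.11, adjusted p = 0.0754. The 39 genes of bacterial sensing and innate cytokine signalling had 6 higher and 4 lower and a median of 0.07. Lbp, which binds bacterial lipopolysaccharide, ran from 1.35 to 7.94 CPM in MS_EC12 and from 1.51 to 2.73 CPM in MS (0.83 ± 0.29, adjusted p = 0.0904), and its highest value was that of MS_EC12 replicate 6. Without that library its log2 fold change was 0.35.

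**Figure D5:**
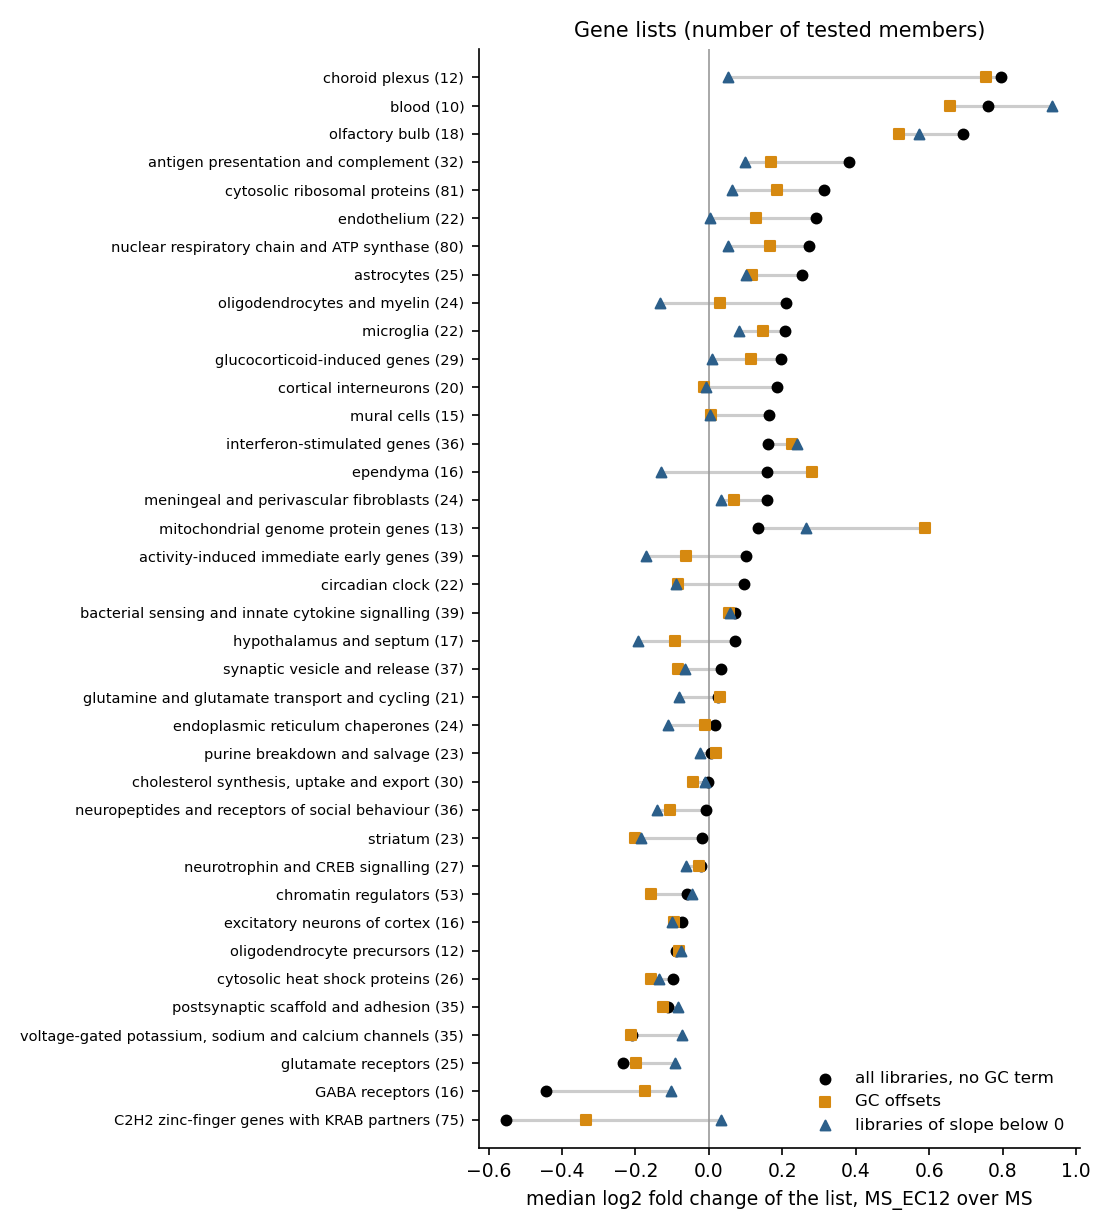
Median log2 fold change of MS_EC12 over MS (horizontal axis) in 38 gene lists (vertical axis, number of tested members in brackets), in all libraries without a GC term (black), with GC offsets (orange) and in libraries of slope below 0 (blue). Zinc-finger genes lie at −0.55, −0.33 and 0.03, and interferon-stimulated genes at 0.16, 0.23 and 0.24.

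Markers of astrocytes, microglia and endothelium leaned higher. The 25 astrocyte markers had 14 higher and 3 lower and a median of 0.25, the 22 microglial markers 12 higher and 1 lower and 0.21, and the 22 endothelial markers 11 higher and 0 lower and 0.29. With offsets the medians were 0.12, 0.15 and 0.13, and 0.10, 0.08 and 0.0023 in the libraries of slope below 0. Examples of the higher markers were the astrocyte genes Mlc1 (0.39 ± 0.09, adjusted p = 0.0664) and Acsbg1 (0.35 ± 0.08, adjusted p = 0.0664), the microglial genes Tyrobp (0.50 ± 0.13, adjusted p = 0.0754) and C1qa (0.43 ± 0.12, adjusted p = 0.0789) and the endothelial gene Ly6a (0.65 ± 0.15, adjusted p = 0.0664). With offsets they stood at 0.31, 0.15, 0.30, 0.16 and 0.71. The astrocyte gene Gja1 was lower (−0.28 ± 0.09, adjusted p = 0.0805), at −0.34 with offsets and −0.38 in the libraries of slope below 0. Other glial lists did not lean this way throughout. The 24 markers of oligodendrocytes and myelin had 6 higher and 3 lower and a median of 0.21, then 1 higher and 2 lower and 0.03 with offsets, and 1 higher and 6 lower and −0.13 in the libraries of slope below 0. The 12 markers of oligodendrocyte precursors had 1 higher and 4 lower and a median of −0.09, then 1 higher and 3 lower and −0.08 with offsets, and 1 higher and 1 lower and −0.08 in the libraries of slope below 0. The 15 markers of mural cells, of the vessel wall, had 3 higher and 0 lower and a median of 0.16. Among myelin genes Mbp, at 55.2% GC, stood at 0.36 ± 0.13, adjusted p = 0.0976, while Ugt8a, at 39.1%, stood at −0.69 ± 0.16, adjusted p = 0.0664. The 16 excitatory neuron markers had 3 higher and 5 lower, with Foxp2, of deep layers, at −0.67 ± 0.19, adjusted p = 0.0789, and Emx1 at 0.42 ± 0.14, adjusted p = 0.0843. With offsets Foxp2 stood at −0.65 and Emx1 at 0.14.

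Markers of tissue around the cortex varied between libraries. The 12 tested choroid plexus markers, of 16, summed to 909 CPM in MS_EC12 replicate 6 and to between 131 and 189 CPM in the other 5 MS_EC12 libraries, and to between 193 and 239.6 CPM in MS. Folr1, Slc4a5, Kcne2 and Cldn2 were under the filter on low counts. The list's median was 0.80 in all libraries and 0.05 in the libraries of slope below 0, with Trpv4 at 1.04 ± 0.25, adjusted p = 0.0745 and Sostdc1 at 1.16 ± 0.42, adjusted p = 0.092. Without MS_EC12 replicate 6 the list's median was −0.18, with Trpv4 at 0.72 and Sostdc1 at 0.45. The 16 ependymal markers summed to 22.3 to 60.8 CPM in MS_EC12 and 23.2 to 36.04 CPM in MS, highest in MS_EC12 replicate 6. They had 3 higher and 2 lower and a median of 0.16, and −0.13 in the libraries of slope below 0. Foxj1 stood at 0.78 ± 0.22, adjusted p = 0.0789, and at 0.46 without MS_EC12 replicate 6. Cfap44 (−0.94 ± 0.20, adjusted p = 0.0519) and Spag17 (−3.04 ± 1.06, adjusted p = 0.0894) were lower. The 10 tested blood markers, of 16, summed to 239 to 610.2 CPM in MS_EC12 and 188 to 302 CPM in MS, again highest in MS_EC12 replicate 6. They had 7 higher and 0 lower and a median of 0.76, then 0.66 with offsets, 0.93 in the libraries of slope below 0, and 0.61 without MS_EC12 replicate 6, with Hbb-bt at 0.83 ± 0.20, adjusted p = 0.0704 and Hba-a1 at 0.72 ± 0.19, adjusted p = 0.0754. The 18 olfactory bulb markers summed to 886 to 1469 CPM in MS_EC12 and 875 to 1235 CPM in MS, with a median of 0.69 and Th at 0.89 ± 0.41, adjusted p = 0.143. Striatal markers summed to 2127 to 4787 CPM in MS_EC12 and 3013 to 4137 CPM in MS. The part of these tissues in the gene results was not tested. Without MS_EC12 replicate 6 the number of calls was 0, with 3298 genes at an unadjusted p under 0.05.

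These genes of stress, immunity and social behaviour missed the threshold. Nr3c1, the glucocorticoid receptor, ran from 54.05 to 95.9 CPM in MS_EC12 and from 78.5 to 111 CPM in MS (−0.41 ± 0.14, adjusted p = 0.0856). It stood at −0.52 ± 0.17 with offsets and at −0.18 ± 0.08 in the libraries of slope below 0. Fkbp5, which glucocorticoids induce, ran from 38.6 to 51.4 CPM in MS_EC12 and from 34.4 to 41.5 CPM in MS (0.21 ± 0.07, adjusted p = 0.0843), and Plin4, another gene of the glucocorticoid list, stood at 0.75 ± 0.21, adjusted p = 0.0789. Crhr1, the receptor of corticotropin-releasing hormone, stood at 0.39 ± 0.11, adjusted p = 0.0774, and at 0.17 ± 0.12 with offsets. Bdnf, the neurotrophin of activity-dependent plasticity, has 40.4% GC and stood at −0.42 ± 0.16, adjusted p = 0.0952, at −0.06 ± 0.09 with offsets and at −0.18 ± 0.11 in the libraries of slope below 0. Oxtr, the oxytocin receptor, stood at −0.21 ± 0.11, adjusted p = 0.19, and Avpr1a, a vasopressin receptor, at −0.30 ± 0.33, adjusted p = 0.523, and at −0.50 ± 0.53 in the libraries of slope below 0. Fos, a marker of recent activity, stood at 0.16 ± 0.15, adjusted p = 0.473 in all libraries, at 0.07 ± 0.14 with offsets and at −0.08 ± 0.22 in those of slope below 0. Il1b, an inflammatory cytokine, stood at −0.22 ± 0.36, adjusted p = 0.683, and at −0.06 ± 0.36 with offsets. Tlr2, a receptor for bacterial lipoproteins, stood at −0.13 ± 0.20, adjusted p = 0.658 in all libraries and at 0.01 ± 0.33 in those of slope below 0. Of 36 neuropeptides and receptors of social behaviour 4 were higher and 9 lower, with Htr2c, a serotonin receptor, at −0.56 ± 0.13, adjusted p = 0.0704 and Npy1r, a neuropeptide Y receptor, at −0.47 ± 0.12, adjusted p = 0.0754. With offsets Htr2c stood at −0.21 ± 0.10 and Npy1r at −0.23 ± 0.07, and in the libraries of slope below 0 Htr2c stood at −0.33 ± 0.13 and Npy1r at −0.19 ± 0.09.

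In normally reared mice the supplement gave 4 calls, Control_EC12 against Control (0.0218%), 2 in each direction (0.0109%), and 8.93% of genes had an unadjusted p under 0.05. With GC offsets there were 61 calls (0.332%), 10 higher (0.0544%) and 51 lower (0.277%). Usp43 (0.76 ± 0.12, adjusted p = 0.00571) rose. Per2, a clock repressor (−1.08 ± 0.14, adjusted p = 0.00106), and Banp (−0.64 ± 0.09, adjusted p = 0.0021) fell. Among genes called in separated mice, the log2 fold change of Control_EC12 over Control was 0.27 ± 0.14 for Slc38a3, 0.29 ± 0.10 for Abhd4 and −0.15 ± 0.16 for Xdh. The difference between the contrasts, tested as an interaction over all 24 libraries, passed in 2 genes (0.0109%), with 4.8% of genes at an unadjusted p under 0.05, and with GC offsets in 1 (0.00544%). By edgeR's test 0 of the 30 passed it, and 21 had an unadjusted p under 0.05. They were selected on MS_EC12 over MS, which is one side of the interaction, so nothing is read from that count. Bhlhe40, a clock and activity factor, had an interaction of 0.89 ± 0.15, adjusted p = 0.0379, with 0.39 ± 0.11, adjusted p = 0.0774 for MS_EC12 over MS and −0.50 ± 0.11 for Control_EC12 over Control. Banp had an interaction of 0.84 ± 0.13, adjusted p = 0.0152, with 0.20 ± 0.09, adjusted p = 0.144 for MS_EC12 over MS, which was −0.02 ± 0.09 with GC offsets.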

How the data were processed

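Per the labels' protocols, cortex RNA was isolated with ISOGEN II and sequenced from stranded mRNA libraries. Tools named by the submitters' processing notes are Trimmomatic 0.38, HISAT2 2.1.0, StringTie 2.1.3b, FastQC 0.11.7 and DESeq2, with build mm10; how reads were counted, and on which strand, is not stated. For 45777 genes the authors deposited read counts without normalization, on which every main result rests, and TPM values, used in an alternative. FPKM values that the authors deposited, per the file headers, were not used.

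Counts were tested with edgeR 4.0.16 (R 4.3.3): quasi-likelihood F test, 2-sided, TMM scaling, 24 libraries in 4 groups, Benjamini-Hochberg adjustment over the 18380 genes that filterByExpr kept (minimum count 10, minimum total 15). Values after ± are the SE of a log2 fold change unless named SD, with n = 6 libraries a group. Libraries held 26250197 to 39252382 counts, which leaves genes near 1 CPM imprecise. GC content is the median over a gene's protein-coding GENCODE M21 transcripts (all transcripts if it has none), and 92.94% of tested genes had a value; the others received no offset. GC offsets are natural splines (6 degrees of freedom) fitted per library to log2 CPM (prior count 2). No pair of libraries agreed within sampling noise (lowest chi-square per gene 5.56). Acvr2a, S100a1, Enho, Nr1d1 and Smox overlap other protein-coding genes, TrnL2 a neighbouring transfer RNA, and reads of near-identical copies (haemoglobin, histone, class I, zinc-finger and ribosomal protein genes) could have been split, so these values are less certain.

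Members, lists and the test of the GC slope were chosen with earlier results of these data known. The naming rule took, per direction, the 14 genes of smallest p passing without a GC term (where fewer than 5 passed, the 5 of smallest p, said not to pass), the 8 passing in both fits, the 8 passing with offsets, up to 4 per list, and the candidates. Gja1, other called genes, and those of the slope covariate, the libraries of slope below 0, Control_EC12 and the interaction, were named after their values were seen. Some items are not reported here. The fits were tested on simulated data. Alternatives used DESeq2 1.42.0, limma 3.58.1 on log2(TPM + 0.1) and log2(TPM + 1), other filters and scalings, and fits without each library.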

Additional observations from a re-analysis of the deposited data

Results flagged for a closer look

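Of 204 groups of 6 values checked, 30 held a library whose gap to the nearest of the others as a share of the group's whole range was over Dixon's 95% critical value for 6. Chance gives about 1 in 20 such groups, and genes of a library are not independent. The GC slope of MS replicate 3 was among them (0.28 against −0.21 to −0.16, gap 0.888 of the range). For genes, the gap as a share of the range follows the CPM values in brackets.

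MS replicate 3 stood above the other 5 MS libraries in Abhd4 (77.2 against 52.3 to 58.3 CPM, 0.756), Enho (41.3 against 30.3 to 32.8 CPM, 0.768), Mlc1 (188 against 150.2 to 163 CPM, 0.670), Acsbg1 (171 against 137 to 146 CPM, 0.745), C1qa (45.1 against 34.3 to 37.1 CPM, 0.740), Hadh (25.1 against 19.2 to 21.1 CPM, 0.682) and Lbp (2.73 against 1.51 to 1.84 CPM, 0.725). It stood below them in Slc7a11 (32.5 against 44.98 to 51.6 CPM, 0.654), Gabrb1 (79.3 against 139 to 161 CPM, 0.729), Grm5 (145 against 207 to 240.4 CPM, 0.648), Syt4 (143 against 195 to 221 CPM, 0.669), Acvr2a (27.7 against 46.6 to 53.9 CPM, 0.721), Alcam (142 against 214 to 242 CPM, 0.717) and Foxp2 (18.2 against 30.95 to 35.4 CPM, 0.743).

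MS_EC12 replicate 6 stood above the other 5 MS_EC12 libraries in Abhd4 (115 against 75.8 to 82.7 CPM, 0.824), Cst3 (1859 against 1148 to 1414 CPM, 0.626), Npc2 (80.02 against 61.1 to 66.2 CPM, 0.732), H2bc4 (44.2 against 32.2 to 35.6 CPM, 0.723), COX3 (8334 against 5955 to 6432 CPM, 0.7998), Trpv4 (5.67 against 1.52 to 3.07 CPM, 0.627), Sostdc1 (3.75 against 0.429 to 0.983 CPM, 0.833), Lbp (7.94 against 1.35 to 2.89 CPM, 0.767) and Foxj1 (21.4 against 5.48 to 10.4 CPM, 0.690).

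MS_EC12 replicate 2 was high in Gm32810 (2.19 against 0.776 to 1.25 CPM, 0.665) and Htr2c (71.5 against 38.3 to 49.95 CPM, 0.649). MS_EC12 replicate 1 was high in Fkbp5 (51.4 against 38.6 to 42.96 CPM, 0.662). MS replicate 5 was high in Fam83d (1.89 against 0.922 to 1.23 CPM, 0.680) and Sorcs3 (65.2 against 46.3 to 52.6 CPM, 0.667). MS replicate 1 was high in Acacb (4.66 against 3.49 to 3.79 CPM, 0.742).

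By the interaction term of edgeR's quasi-likelihood test, the log2 fold change of the supplement differed between separated and normally reared mice in Bhlhe40 (0.89 ± 0.15, adjusted p = 0.0379) and Banp (0.84 ± 0.13, adjusted p = 0.0152). In both genes it was positive in separated mice and negative, and larger in size, in normally reared mice. With GC offsets the adjusted p of the interaction was 0.0162 for Bhlhe40 and 0.0792 for Banp.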

How the results depend on the processing

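The count of 30 genes was 30 genes (27 higher, 3 lower) with RLE size factors and 38 genes (33 higher, 5 lower) under a stricter filter. It was 1 without a filter, 0 in the 12 libraries alone (4650 at an unadjusted p under 0.05), 17 with GC offsets and 17 with GC and length offsets, 3 with the slope covariate, 14 without libraries of slope above 0, 1747 genes (784 higher, 963 lower) by DESeq2, and by limma on TPM 5 genes (1 higher, 4 lower) with pseudocount 0.1 and 161 genes (21 higher, 140 lower) with pseudocount 1. Leaving out 1 library gave 0 to 5037 genes. Of 6 same-numbered pairs of libraries 2 had deviations correlated above 0.1 (range −0.21 to 0.43, own number best for 1). The deviations kept each library's trend over GC, and MS_EC12 replicates 3, 4, 5 and 6 all matched MS replicate 3 best. Whether same-numbered libraries share more than a number therefore cannot be told from this. The replicate block gave 0 genes (5972 at an unadjusted p under 0.05), and 0 with GC offsets (4265). The cause of these differences was not tested.

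The count of 17 with GC offsets was 0 in the 12 libraries (3645 unadjusted), 12 without libraries of slope above 0, 43 under the stricter filter, 5 with offsets from 20 bins, 0 with the replicate block, and 0 to 1451 without 1 library. Control_EC12 against Control gave 61 with offsets in place of 4, and the interaction 1 in place of 2. The GC slope difference was 0.255 to 0.416 without 1 library (exact permutation p from 0.0238 to 0.0974) and 0.322 (exact permutation p = 0.0866) with transcript length in the regression. Its p stayed under 0.05 with protein-coding genes only, the stricter filter and prior count 0.5.

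Log2 fold changes turned sign in 6 of the 98 genes checked for this, none among the 30. With TPM and pseudocount 0.1 or 1, Mertk stood at −0.0482 and −0.043, Ccdc141 at −0.0394 and −0.022, and Pyurf at −0.108 and −0.0974. Without 1 library Mertk ran from −0.0291 to 0.181, Ccdc141 from −0.0204 to 0.276 and Pyurf from −0.0641 to 0.0507. Banp stood at −0.0219 with GC offsets, −0.0407 with GC and length offsets, −0.055 without libraries of slope above 0 and −0.00972 with the replicate block and GC offsets. Without libraries of slope above 0, Tlr2 stood at 0.00939 and Fos at −0.0755.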
